A study of Mus musculus with 12 samples.

Results

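The oxygen by lactate interaction asks whether low oxygen changes a transcript by a different factor when lactate is present than when it is not. It was measured across all 12 libraries of the series, every library being used, in primary macrophages grown from the bone marrow of C57BL/6 mice and taken at day 7 of culture. The oxygen was either ordinary (normoxia) or 1% (hypoxia), and the medium held 25 mM sodium lactate or, as the salt control, 25 mM NaCl. The 4 groups have 3 libraries each and are named by both factors: normoxia-NaCl (neither treatment), hypoxia-NaCl, normoxia-lactate and hypoxia-lactate. No group carries a mutation or a transgene, all cells share the C57BL/6 background, and the length of exposure is not given in the sources used here. The interaction of a gene is the log2 change with hypoxia in lactate medium minus the log2 change with hypoxia in NaCl medium. A value of 0 means that the 2 effects multiply, a positive value that hypoxia-lactate lies above the product of the 2 single effects, and a negative value that it lies below. Interactions are given with all 12 libraries and without hypoxia-lactate 3, which stood apart. In the latter case hypoxia-lactate has 2 libraries. CPM values of single libraries are scaled over all 12, and products, sums and mean CPM values of groups over the 11.

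At low oxygen the prolyl hydroxylases that mark hypoxia-inducible factor (HIF) for destruction lose activity, and HIF then drives genes of glycolysis, lactate export and angiogenesis. Lactate is the end product of that glycolysis, is carried out of and into cells by proton-coupled transporters, and accumulates with low oxygen in poorly perfused tissue, so that macrophages there meet both together. A second pathway that both conditions can touch is the integrated stress response, in which the transcription factor ATF4 raises genes for amino acid synthesis, amino acid uptake and tRNA charging.

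Gene counts per library came to 22705978 to 49885085. In hypoxia-lactate 3, 11437 genes reached 10 counts, fewer than the 13198 to 14767 of the other libraries, and its mitochondrially encoded share of 0.486% was below their 2.04% to 4.75%. Leaving it out brought edgeR's common coefficient of variation between libraries of a group from 38.25% to 24.3%. Macrophage markers were abundant in all libraries, with 33069 to 51756 CPM (counts scaled to the library size) summed over the 13 markers that have an identifier. Summed markers of other cell types were far lower, the highest being those of osteoclasts at 332.5 to 648 CPM. They came to 149.7 to 294 CPM for neutrophils, 57.4 to 190 CPM for fibroblasts and stroma and 37.9 to 71.1 CPM for dendritic cells. Erythroid and megakaryocyte markers summed to 7.09 to 77.6 CPM and those of mast cells and basophils to 2.70 to 9.91 CPM. Lymphocyte markers summed to 18.6 to 61.6 CPM, with the B cell marker Ms4a1 and the NK cell marker Ncr1 at 0 in every library. In bulk RNA, fewer cells of a type and less RNA per cell cannot be told apart. Whether the libraries within a group are separate mice, separate cultures or repeats of 1 culture is not stated in the labels. The p-values therefore refer to the spread between these samples only, which may be technical.

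No gene passed the test for a departure from multiplying effects. With all 12 libraries 0 of 14616 tested genes had a positive and 0 a negative interaction at a Benjamini-Hochberg (BH) adjusted p under 0.05 in edgeR's quasi-likelihood test (0% of the genes called in each direction), and the lowest adjusted p was 0.902. Without hypoxia-lactate 3 the count was again 0 of 15088 in each direction (0%), with 0.254 as the lowest adjusted p. At an unadjusted edgeR p under 0.05 there were 245 positive and 252 negative genes with all libraries, 3.4% of those tested. Without hypoxia-lactate 3 there were 190 and 419, 4.04%. Both edgeR shares lie under the 5% that this threshold passes when nothing differs. Other tools gave other counts at that threshold, with all libraries and without hypoxia-lactate 3. DESeq2 had 741 and 730, limma-voom 521 and 555, and limma-voom with quality weights 951 and 889. Of these, 741, 951 and 889 are over 5% of the tested genes. DESeq2 called 1 gene with all libraries and 3 without hypoxia-lactate 3, limma-voom called 0 and 0, and limma-voom with library quality weights called 2 and 3.

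The genes that those tools called were 3 pseudogenes or predicted genes, Gm14111, Gm10364 and Gm11353. Gm14111, a processed pseudogene in GENCODE, measured 10.9, 5.79 and 3.42 CPM in normoxia-NaCl, 3.58, 5.65 and 2.71 in normoxia-lactate, 2.83, 2.70 and 2.41 in hypoxia-NaCl and 17.3, 23.00 and 10.03 in hypoxia-lactate. Its interaction was 3.40 ± 0.66 (SE; 95% interval 1.97 to 4.84) with all libraries and 3.66 ± 0.55 (SE; 95% interval 2.46 to 4.85) without hypoxia-lactate 3. Its 3 hypoxia-lactate libraries were not separate from every normoxia-NaCl library, since hypoxia-lactate 3 lay below normoxia-NaCl 1. The adjusted p for this gene was 0.902 and 0.254 in edgeR, 0.00087 and 1.5e-06 in DESeq2, and 0.0153 and 0.0388 in limma-voom with quality weights, each with all libraries and without hypoxia-lactate 3. edgeR called it as well when hypoxia-lactate 3 and normoxia-NaCl 3 were both left out (adjusted p 0.0308), and edgeR called all 3 without the low-count filter and without hypoxia-lactate 3. Pseudogenes copied from other transcripts share reads with them, so these values are uncertain.

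How large an interaction could have gone unseen differed with the libraries used. The median gene had a 95% interval of 1.18 log2 units to each side with all libraries and 0.74 without hypoxia-lactate 3. Among genes with a mean of at least 5 CPM, the interval lay wholly inside a 2-fold departure from the product for 29.4% of 10056 genes with all libraries and for 72.2% of 10099 without hypoxia-lactate 3. For a 4-fold departure the shares were 81.3% and 98.2%. For most genes above 5 CPM the 11 libraries thus bound the departure to less than 2-fold, whereas the 12 libraries do not.

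Without hypoxia-lactate 3, genes called for oxygen had close median changes in both media, while with all libraries the lower ones had a more negative median in lactate. To pick such genes, the oxygen effect was averaged over the NaCl and lactate media, a comparison added after seeing the data. This choice favours neither sign of the interaction only where the 4 group means are equally precise. With 2 hypoxia-lactate libraries, or with hypoxia-lactate 3 among its 3, that group's mean may be less precise. The choice then leans the higher genes to positive and the lower genes to negative interactions. In edgeR at a BH-adjusted p under 0.05, 163 genes were higher (1.12% of those tested) and 38 lower (0.26%) at low oxygen with all libraries, and 590 (3.91%) and 555 (3.68%) without hypoxia-lactate 3. Among the 590 higher genes the median log2 change with hypoxia was 0.74 in NaCl and 0.70 in lactate, and the median interaction was -0.04, with 261 positive and 329 negative values. Among the 555 lower genes the medians were -0.63 and -0.60 and the median interaction 0.02, with 291 positive and 264 negative. The interval lay inside a 2-fold departure for 384 of the 590 and 356 of the 555. With all libraries the 163 higher genes had medians of 1.21 in NaCl and 1.26 in lactate and a median interaction of 0.03, with 90 positive and 73 negative. The 38 lower genes had medians of -0.85 and -1.06 and a median interaction of -0.27 (rounded), with 10 positive and 28 negative, and that median stayed between -0.41 (rounded) and -0.18 over the alternatives and libraries left out. The 2 changes compared here come from separate libraries, but the interaction is their difference, and the medians are a description.

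The counts of genes called for the averaged effect moved by over 1.5-fold with single libraries. With all libraries, leaving out any 1 of normoxia-NaCl, normoxia-lactate or hypoxia-NaCl gave 73 to 107 higher and 7 to 22 lower, hypoxia-lactate 1 gave 135 and 22, and hypoxia-lactate 2 gave 189 and 68. Beside hypoxia-lactate 3, leaving out normoxia-lactate 1 gave 304 higher and 186 lower, normoxia-lactate 2 gave 358 and 234, hypoxia-NaCl 1 gave 353 and 228, hypoxia-lactate 1 gave 272 and 129, and hypoxia-lactate 2 gave 326 and 212. Leaving out hypoxia-NaCl 2 or 3 gave 402 and 397 higher, with 240 and 258 lower. The median interaction of the 590 genes stayed between -0.09 and 0.06 over the alternatives and libraries left out.

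**Figure D1:**
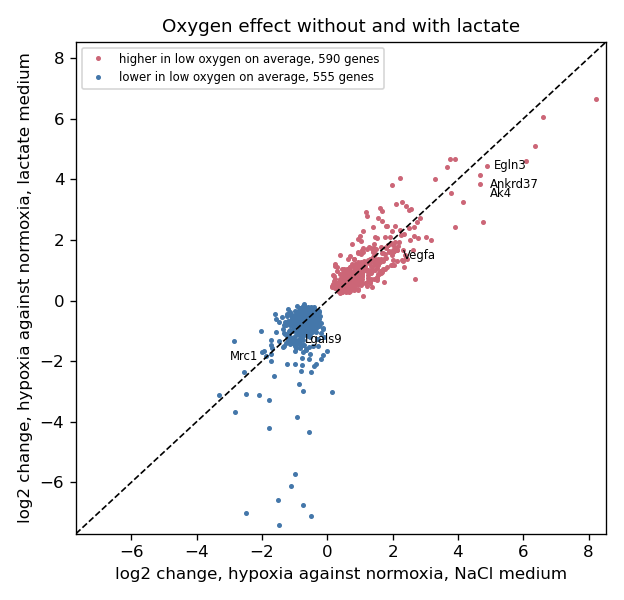
Log2 change with hypoxia in NaCl medium (x axis) against that in lactate medium (y axis) without hypoxia-lactate 3, 1 point per gene called for the averaged oxygen effect (590 higher in red, 555 lower in blue), and the dashed line where both changes are equal. The points lie to both sides of the line, with a median interaction of -0.04 for the higher and 0.02 for the lower genes.

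Hypoxia-lactate was often the extreme group for these genes. It had the highest mean CPM of the 4 groups in 467 of the 590 higher genes and the lowest in 421 of the 555 lower genes without hypoxia-lactate 3, and in 130 of 163 and 34 of 38 with all libraries. Over all tested genes it was the highest group in 32.1% and the lowest in 32.3% without hypoxia-lactate 3. With all libraries these shares were 34.4% and 38.1%. The choice of genes by the averaged oxygen effect favours an extreme hypoxia-lactate mean, since hypoxia-lactate is 1 of the 2 hypoxia groups. The median log2 change with lactate in normoxia was 0.24 for the 590 higher and -0.21 for the 555 lower ones. On the linear CPM scale, where adding and not multiplying is the reference, 374 of the 590 lay above the sum of the single effects and 216 below it, against 118 and 45 of the 163 with all libraries. Of the 555 lower genes 356 lay above and 199 below, and of the 38 with all libraries 24 and 14. Where both single effects go the same way, a gene whose effects multiply lies above their sum. An excess above the sum is then no sign of an interaction. These rank and sum counts are descriptions, since the averaged oxygen effect that chose the genes uses the same libraries. For the sum counts the share over all tested genes is not given here. Averaged in the same way, lactate had 4 higher genes (0.0274% of those tested) and 1 lower (0.00684%) with all libraries in edgeR at a BH-adjusted p under 0.05, with a median interaction of -0.39 for the 4 and -0.14 for the 1. Without hypoxia-lactate 3 it had 26 higher (0.172%) and 20 lower (0.133%), with median interactions of 0.12 and -0.29.

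For HIF targets that hypoxia raised strongly, the measured level in hypoxia-lactate can be set beside the product and the sum of the single effects. Egln3 is a HIF prolyl hydroxylase and itself a HIF target, and Ankrd37 is an ankyrin-repeat protein induced through HIF. The 250 bases before their annotated starts (RefSeq, GRCm38.p6; Egln3 chr12:54203875-54204124, minus strand; Ankrd37 chr8:45999851-46000100, minus strand) are shown because both hold the core of the hypoxia response element, ACGTG or GCGTG on either strand, in capitals below. Egln3 has 1 match and Ankrd37 has 4, of which 2 overlap.
Egln3: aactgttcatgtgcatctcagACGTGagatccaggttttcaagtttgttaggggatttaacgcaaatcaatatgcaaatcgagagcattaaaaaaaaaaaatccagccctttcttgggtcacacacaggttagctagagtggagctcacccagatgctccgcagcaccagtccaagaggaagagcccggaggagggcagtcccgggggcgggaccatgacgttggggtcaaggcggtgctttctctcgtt
Ankrd37: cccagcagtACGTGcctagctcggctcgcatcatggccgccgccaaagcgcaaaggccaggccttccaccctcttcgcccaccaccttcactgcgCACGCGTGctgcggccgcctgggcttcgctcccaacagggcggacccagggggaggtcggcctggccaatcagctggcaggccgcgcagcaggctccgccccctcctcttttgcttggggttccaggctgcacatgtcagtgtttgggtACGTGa
This core stood in 56.7% of 9826 such windows of tested genes, in 18 of 22 windows (81.8%) of the listed HIF targets and in 249 of 421 windows (59.1%) of the genes higher at low oxygen. A match of so short a word describes the letters and is no measured binding site. The counts were made on another build, mm9.

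Egln3 measured 3.15, 4.42 and 3.40 CPM in normoxia-NaCl, 5.56, 7.90 and 5.09 in normoxia-lactate, 101, 101 and 129 in hypoxia-NaCl and 127, 142 and 118 in hypoxia-lactate. The 6 hypoxia libraries lay far above the 6 normoxia libraries, and the 2 hypoxia groups overlapped. Hypoxia raised Egln3 by 4.90 log2 in NaCl and by 4.44 in lactate without hypoxia-lactate 3 (edgeR BH-adjusted p 5.36e-08 and 1.85e-07). Its interaction was -0.53 ± 0.31 (SE; 95% interval -1.19 to 0.14) with all libraries and -0.46 ± 0.28 (SE; 95% interval -1.07 to 0.14) without hypoxia-lactate 3. Without that library the product of the single effects is 192 CPM, their sum 116 CPM and the measured mean 139 CPM, so the measured level lay between the 2 and nearer the sum.

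Ankrd37 measured 2.74, 2.69 and 2.58 CPM in normoxia-NaCl, 3.83, 4.21 and 3.91 in normoxia-lactate, 66.1, 61.3 and 78.4 in hypoxia-NaCl and 82.5, 59.5 and 135 in hypoxia-lactate. Normoxia-lactate lay above normoxia-NaCl in every library, while hypoxia-lactate 1 and 2 spanned the hypoxia-NaCl values. Its interaction was -0.15 ± 0.37 with all libraries and -0.53 ± 0.24 (SE; 95% interval -1.04 to -0.03) without hypoxia-lactate 3, at an unadjusted edgeR p of 0.0411 and an adjusted p of 0.998. Its product was 105 CPM, its sum 71.6 CPM and its measured mean 72.96 CPM. Ak4, a mitochondrial adenylate kinase, measured 0.777, 1.37 and 1.62 CPM in normoxia-NaCl, 2.35, 0.869 and 2.67 in normoxia-lactate, 34.03, 19.8 and 45.8 in hypoxia-NaCl and 30.7, 26.4 and 13.9 in hypoxia-lactate. Its hypoxia groups overlapped, and its interaction was -1.11 ± 0.66 with all libraries and -0.81 ± 0.58 (SE; 95% interval -2.06 to 0.44) without hypoxia-lactate 3. Its measured mean of 29.3 CPM lay below both its product of 53.6 CPM and its sum of 34.8 CPM.

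Egln3, Ankrd37 and Ak4 thus all had negative point estimates, and none passed the test. Over the list of 25 tested HIF targets other than glycolytic genes, 0 were called, 12 were positive and 13 negative with all libraries (median -0.08), and 7 were positive and 18 negative without hypoxia-lactate 3 (median -0.07). Leaving out hypoxia-NaCl 3 turned these medians to 0.14 and 0.08. Over all tested genes the medians were -0.04 and 0.00. The list's median change with hypoxia was 1.43 in NaCl and 1.37 in lactate without hypoxia-lactate 3.

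Genes of glucose uptake, lactate formation and lactate export had estimates that moved with hypoxia-lactate 3. Slc16a3, the HIF-driven lactate exporter MCT4, measured 92.5, 88.1 and 77.9 CPM in normoxia-NaCl, 98.7, 161 and 81.5 in normoxia-lactate, 444, 319.5 and 486 in hypoxia-NaCl and 521, 494 and 1298 in hypoxia-lactate. Hypoxia-lactate 1 and 2 lay just above the hypoxia-NaCl range and hypoxia-lactate 3 at more than 2-fold their level. The interaction was 0.49 ± 0.51 with all libraries and -0.12 ± 0.34 (SE; 95% interval -0.85 to 0.62) without hypoxia-lactate 3. Ldha, the lactate dehydrogenase subunit that favours lactate formation, gave 0.36 ± 0.41 and -0.02 ± 0.31 (SE; 95% interval -0.69 to 0.65). Without hypoxia-lactate 3 its product of 1877 CPM and its measured mean of 1846 CPM were nearly equal, since lactate changed it by 0.00 log2 in normoxia and -0.02 in hypoxia.

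Slc2a1, the glucose transporter GLUT1, measured 79.1, 77.4 and 79.5 CPM in normoxia-NaCl, 94.2, 125 and 83.4 in normoxia-lactate, 286, 231 and 366 in hypoxia-NaCl and 304, 313 and 529 in hypoxia-lactate. Its interaction was 0.02 ± 0.36 with all libraries, turning to -0.19 under upper-quartile scaling, and -0.29 ± 0.27 (SE; 95% interval -0.88 to 0.30) without hypoxia-lactate 3. Over the 20 genes of glycolysis and glucose uptake, 17 were positive with all libraries (median 0.48) and 13 once hypoxia-lactate 3 was left out (median 0.13, turning to -0.08 when normoxia-NaCl 1 was left out as well), and 0 were called in both. Hif1a, the oxygen-regulated HIF subunit, which is controlled mainly as a protein, measured 40.9, 40.1 and 33.6 CPM in normoxia-NaCl, 40.3, 45.96 and 50.7 in normoxia-lactate, 38.1, 43.6 and 36.02 in hypoxia-NaCl and 58.9, 60.97 and 35.4 in hypoxia-lactate. Hypoxia-lactate 1 and 2 were its highest libraries and hypoxia-lactate 3 among its lowest, and the interaction was 0.14 ± 0.32 and 0.35 ± 0.21 (SE; 95% interval -0.10 to 0.80).

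Vegfa, the main angiogenic growth factor, measured 37.9, 54.2 and 56.4 CPM in normoxia-NaCl, 72.5, 93.2 and 52.5 in normoxia-lactate, 181, 201 and 221 in hypoxia-NaCl and 252, 265 and 687 in hypoxia-lactate. All hypoxia-lactate libraries lay above all hypoxia-NaCl libraries, which lay above all normoxia libraries. Hypoxia raised it by 2.02 log2 in NaCl and 1.83 in lactate without hypoxia-lactate 3 (edgeR BH-adjusted p 0.000349 and 0.00184). The interaction was 0.44 ± 0.50 (SE; 95% interval -0.64 to 1.53) with all libraries and -0.19 ± 0.30 (SE; 95% interval -0.84 to 0.46) without hypoxia-lactate 3, where the product was 304 CPM and the measured mean 266 CPM. The sign turned with that 1 library, and without it the interval bounded the departure to under 2-fold either way.

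**Figure D2:**
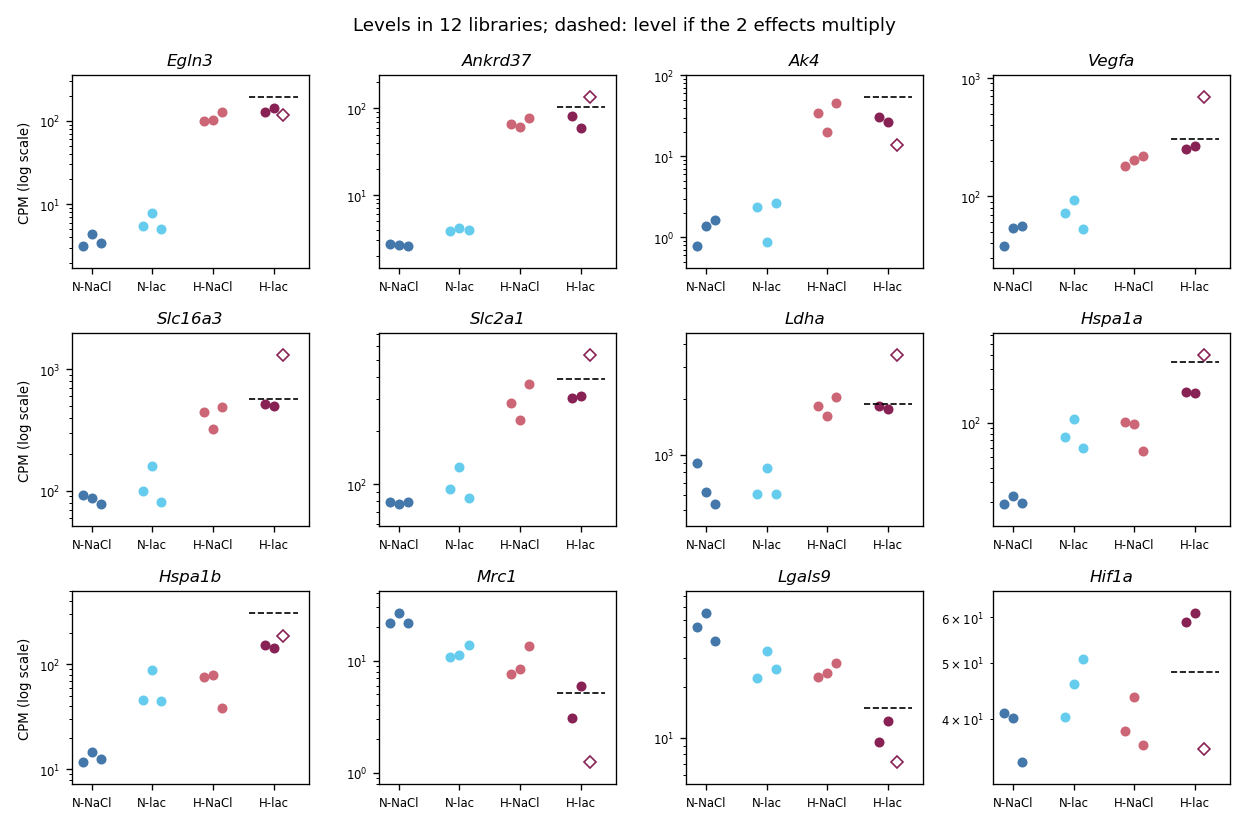
CPM (log axis) of 12 genes in the 12 libraries, scaled over all 12, with N for normoxia, H for hypoxia and lac for lactate; the open diamond is hypoxia-lactate 3 and the dashed line is the product of the single effects computed without it. Hypoxia-lactate 1 and 2 both lie below the line for Egln3, Ankrd37, Ak4, Vegfa, Slc16a3, Slc2a1, Hspa1a, Hspa1b and Lgals9, close to it for Ldha, on either side for Mrc1 and above it for Hif1a.

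Mrc1 and Lgals9 were lower under each single treatment than under neither, and lowest under both. Mrc1, the mannose receptor and a marker of alternative activation, measured 21.8, 26.5 and 21.9 CPM in normoxia-NaCl, 10.8, 11.1 and 13.7 in normoxia-lactate, 7.63, 8.35 and 13.4 in hypoxia-NaCl and 3.10, 5.89 and 1.25 in hypoxia-lactate. The groups did not overlap between normoxia-NaCl and the 3 others, and hypoxia-lactate was the lowest. Its interaction was -0.54 ± 0.61 (SE; 95% interval -1.87 to 0.80) with all libraries and -0.15 ± 0.39 (SE; 95% interval -1.001 to 0.70) without hypoxia-lactate 3, where the product was 5.14 CPM and the measured mean 4.62 CPM. Adding the single effects would give a level below 0 for this gene.

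Lgals9, which encodes the secreted lectin galectin-9, measured 45.6, 55.1 and 37.6 CPM in normoxia-NaCl, 22.8, 32.7 and 25.6 in normoxia-lactate, 22.9, 24.2 and 27.9 in hypoxia-NaCl and 9.46, 12.6 and 7.18 in hypoxia-lactate. Hypoxia-lactate lay below every other library, and the single treatments lay at like levels. Hypoxia lowered Lgals9 by a log2 change of -0.89 in NaCl and -1.30 in lactate without hypoxia-lactate 3 (edgeR BH-adjusted p 0.0339 and 0.016). The interaction was -0.58 ± 0.36 (SE; 95% interval -1.37 to 0.20) and -0.41 ± 0.28 (SE; 95% interval -1.02 to 0.21), and the measured mean of 11.3 CPM lay under the product of 15.03 CPM by less than the spread allows to call.

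The arginine-using enzymes were low and uneven between libraries. Arg1, arginase 1, had 0, 0 and 0 counts in normoxia-NaCl, 0, 2 and 0 in normoxia-lactate, 8, 1 and 19 in hypoxia-NaCl, and 0, 31 and 2 in hypoxia-lactate. It missed the low-count filter with all libraries, and without hypoxia-lactate 3 its interaction was -1.26 ± 2.06 (SE; 95% interval -5.79 to 3.26). A count of 0 allows up to 0.0601 to 0.132 CPM over these libraries, for counting error only. Nos2, the inducible nitric oxide synthase, reached at most 6.16 CPM, in hypoxia-lactate 1, and its interaction was 0.44 ± 1.70 (SE; 95% interval -3.24 to 4.12) and 0.91 ± 1.41 (SE; 95% interval -2.13 to 3.95). An interaction of either gene was not detectable in these libraries.

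The inducible HSP70 genes had measured levels below the product, and neither passed the adjusted test. Hspa1a and Hspa1b encode nearly identical stress chaperones, so that reads can be split between them and their values are uncertain. Hspa1b measured 11.7, 14.6 and 12.6 CPM in normoxia-NaCl, 45.5, 89.2 and 44.8 in normoxia-lactate, 76.2, 79.9 and 38.9 in hypoxia-NaCl and 153, 144 and 187 in hypoxia-lactate. Each single treatment lay above normoxia-NaCl without overlap, and hypoxia-lactate lay above both. Without hypoxia-lactate 3, hypoxia raised it by 2.32 log2 in NaCl and lactate raised it by 2.21 in normoxia (edgeR BH-adjusted p 0.00153 and 0.0142).

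The product of the 2 effects on Hspa1b would be 308 CPM and their sum 115 CPM, and the measured mean was 153 CPM. The interaction of Hspa1b was -0.89 ± 0.44 (SE; 95% interval -1.84 to 0.06) with all libraries and -1.01 ± 0.43 (SE; 95% interval -1.93 to -0.09) without hypoxia-lactate 3, at unadjusted edgeR p-values of 0.0629 and 0.034 and adjusted p-values of 0.902 and 0.998. Hspa1a, with 19.1, 22.6 and 19.5 CPM in normoxia-NaCl, 74.5, 109 and 60.1 in normoxia-lactate, 102, 98.1 and 55.7 in hypoxia-NaCl and 186, 183 and 395 in hypoxia-lactate, gave -0.41 ± 0.47 and -0.87 ± 0.35. Its product was 347 CPM and its measured mean 189.6 CPM without hypoxia-lactate 3. Both genes were named after their values were seen. Over the 18 heat shock chaperones 0 were called, and the list's median was positive, 0.20 with all libraries and 0.25 without hypoxia-lactate 3, opposite in sign to these 2 genes. Without normoxia-NaCl 1 these medians were 0.03 and 0.02.

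Among the 24 pathway lists the highest median interaction was that of the ATF4 amino acid response. Of its 26 tested genes, 23 had positive values with all libraries (median 0.53) and 24 without hypoxia-lactate 3 (median 0.61), against 47.9% and 49.4% positive over all tested genes. Among genes with a mean of at least 5 CPM, 55.1% and 52.9% were positive. None of the list was called by edgeR at a BH-adjusted p under 0.05 (0% of all tested genes were), and 4 and 8 had an unadjusted p under 0.05, all positive. Over all tested genes, 245 of 14616 and 190 of 15088 were positive at that unadjusted edgeR threshold. Without hypoxia-lactate 3 the median log2 change of the list was -0.51 with hypoxia in NaCl, -0.25 with lactate in normoxia and -0.19 with both against neither. The combined treatment therefore lay nearer to the untreated level than the product of 2 lowerings.

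That pattern leaned on single libraries. Leaving out hypoxia-lactate 2 brought the list's median to 0.17 with the other 11 libraries and to 0.37 with hypoxia-lactate 3 left out as well. Over all single libraries left out it lay between 0.17 and 0.72, and between 0.37 and 0.80 without hypoxia-lactate 3. Under upper-quartile scaling it was 0.42 and 0.59. Upper-quartile scaling moved the median of all tested genes by -0.13 with all libraries, from -0.04 to -0.16.

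Asparagine synthetase (Asns) and Chac1, which degrades glutathione, are standard ATF4 targets. Their windows of 250 bases (RefSeq, GRCm38.p6; Asns chr6:7693210-7693459, minus strand; Chac1 chr2:119350992-119351241, plus strand) are printed because each holds the C/EBP-ATF element TGATGNAA on one of the strands, in capitals.
Asns: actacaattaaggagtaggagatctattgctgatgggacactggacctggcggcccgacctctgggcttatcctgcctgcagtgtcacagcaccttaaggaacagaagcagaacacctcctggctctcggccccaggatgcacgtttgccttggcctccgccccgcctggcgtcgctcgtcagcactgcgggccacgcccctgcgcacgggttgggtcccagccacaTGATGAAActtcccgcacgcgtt
Chac1: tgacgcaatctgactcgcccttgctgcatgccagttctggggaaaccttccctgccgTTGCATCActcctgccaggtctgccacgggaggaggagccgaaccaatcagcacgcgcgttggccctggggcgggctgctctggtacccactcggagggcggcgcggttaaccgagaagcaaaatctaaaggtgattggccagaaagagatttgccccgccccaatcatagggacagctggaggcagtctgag
The element stood in 7 of 22 windows (31.8%) of the ATF4 list and in 197 of 9826 windows (2%) of tested genes. It stood in 5 of 421 windows (1.19%) of the genes higher at low oxygen. These shares describe the letters of the windows only.

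Asns measured 44.5, 29.7 and 19.7 CPM in normoxia-NaCl, 15.2, 24.3 and 15.96 in normoxia-lactate, 11.3, 16.4 and 7.11 in hypoxia-NaCl and 12.4, 29.6 and 1.72 in hypoxia-lactate. Hypoxia-lactate 3 was the lowest library of the 12 and hypoxia-lactate 2 the third highest, so that the group covered most of the range. The interaction was 1.09 ± 0.96 (SE; 95% interval -0.99 to 3.17) with all libraries and 1.61 ± 0.56 (SE; 95% interval 0.41 to 2.81) without hypoxia-lactate 3, and the product of 7.04 CPM stood against a measured mean of 21.6 CPM. Chac1 measured 4.07, 4.98 and 3.95 CPM in normoxia-NaCl, 1.96, 6.26 and 1.91 in normoxia-lactate, 1.26, 2.33 and 0.804 in hypoxia-NaCl and 2.79, 8.67 and 0 in hypoxia-lactate. Here hypoxia-lactate 2 was the highest of the 12 libraries and hypoxia-lactate 3 the lowest, and the interaction was 1.75 ± 1.46 and 2.33 ± 0.79 (SE; 95% interval 0.62 to 4.04).

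Of the tRNA synthetases on the list, 2 had an unadjusted p under 0.05 in both fits. Mars, which charges methionine tRNA, measured 95.96, 64.9 and 65.5 CPM in normoxia-NaCl, 66.5, 63.5 and 61.5 in normoxia-lactate, 50.5, 55.05 and 36.6 in hypoxia-NaCl and 67.8, 74.4 and 74.1 in hypoxia-lactate. Its 3 hypoxia-lactate libraries lay close together and above all 3 hypoxia-NaCl libraries. Its interaction was 0.85 ± 0.29 (SE; 95% interval 0.21 to 1.48) and 0.82 ± 0.27 (SE; 95% interval 0.24 to 1.40), at unadjusted edgeR p-values of 0.0127 and 0.0089. Aars, which charges alanine tRNA, measured 197, 147 and 135 CPM in normoxia-NaCl, 123, 143 and 101 in normoxia-lactate, 99.6, 122 and 66.1 in hypoxia-NaCl and 109, 146 and 241 in hypoxia-lactate and gave 1.17 ± 0.43 and 0.79 ± 0.34.

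Further genes of the list belong to amino acid uptake and one-carbon metabolism. Slc7a5 encodes the transporter chain LAT1, and Slc3a2 the heavy chain that pairs with it. Their interactions were 1.66 ± 0.72 and 0.74 ± 0.32 with all libraries and 1.64 ± 0.68 and 0.71 ± 0.31 without hypoxia-lactate 3. Mthfd2, a mitochondrial folate enzyme, gave 0.82 ± 0.97 and 1.35 ± 0.52, and Psph, of serine synthesis, 0.58 ± 0.48 and 0.80 ± 0.36. Atf4 itself gave 0.27 ± 0.37 (SE; 95% interval -0.53 to 1.07) and 0.48 ± 0.31 (SE; 95% interval -0.19 to 1.15). Atf5, a related factor outside the list, measured 119.8, 82.2 and 83.8 CPM in normoxia-NaCl, 57.8, 90.1 and 44.9 in normoxia-lactate, 41.6, 55.9 and 32.8 in hypoxia-NaCl and 41.97, 102 and 131 in hypoxia-lactate and gave 1.65 ± 0.54 (SE; 95% interval 0.48 to 2.81) and 1.30 ± 0.48 (SE; 95% interval 0.27 to 2.34), at an adjusted edgeR p of 0.902 and 0.998. The genes of the ATF4 list given here were named after their values were seen.

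**Figure D3:**
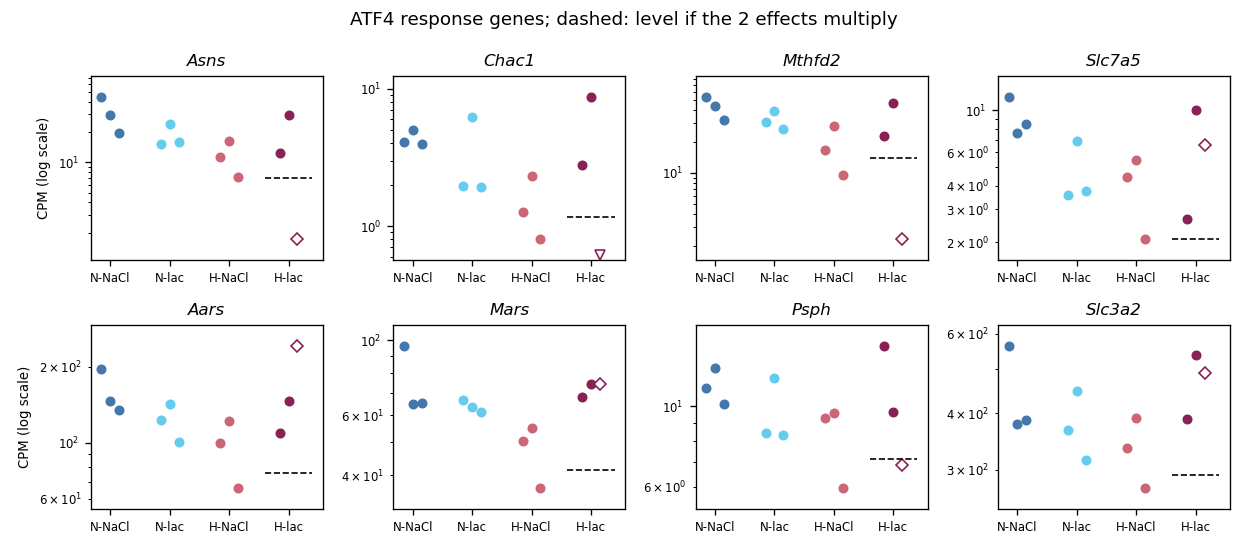
CPM (log axis) of 8 genes of the ATF4 list in the 12 libraries, drawn as for the HIF genes, with a triangle at the lower edge for hypoxia-lactate 3 at 0 CPM for Chac1. In all 8 genes hypoxia-lactate 1 and 2 lie above the dashed product, by a small margin for hypoxia-lactate 1 in Slc7a5.

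Among the other lists 0 members were called, and several medians moved with 1 library. Endoplasmic reticulum folding genes were positive in 16 of 19 with all libraries and 17 of 19 without hypoxia-lactate 3 (medians 0.39 and 0.18, the second falling to 0.09 when hypoxia-lactate 2 was left out as well). Genes of mitosis and DNA replication were positive in 21 and 28 of 30 (medians 0.25 and 0.37), but the medians were -0.06 and 0.08 without normoxia-NaCl 2. Without hypoxia-lactate 3 the median log2 change of this list was -0.52 with hypoxia in NaCl and -0.75 with lactate in normoxia. With both against neither it was -0.88, so the levels of Pcna do not stand for the list. In this list Pcna, the replication clamp, measured 223, 194 and 136 CPM in normoxia-NaCl, 149, 189 and 149 in normoxia-lactate, 160.5, 189.8 and 169.7 in hypoxia-NaCl and 265, 271 and 259 in hypoxia-lactate, with hypoxia-lactate above every other library, and gave 0.80 ± 0.28 (SE; 95% interval 0.19 to 1.40) and 0.81 ± 0.27 (SE; 95% interval 0.24 to 1.39).

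Nuclear-encoded subunits of the respiratory chain and ATP synthase were positive in 25 of 32 in both fits (medians 0.35 and 0.31), falling to 0.08 and -0.02 without normoxia-NaCl 1. That library held the highest mitochondrially encoded share, 4.75%, and the part of that share in the medians was not tested. The 13 mitochondrially encoded subunits had medians of -0.03 and 0.41, and of -0.75 and -0.24 without normoxia-NaCl 1. Enzymes of the tricarboxylic acid cycle were positive in 17 and 23 of 28 (median 0.16 in each), with medians of 0.04 and 0.06 without normoxia-NaCl 1, and of 0.02 with all libraries under upper-quartile scaling. Cholesterol synthesis was positive in 12 and 21 of 22 (medians 0.02 and 0.15), the former turning to -0.09 under upper-quartile scaling and to -0.07 without hypoxia-lactate 2.

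Immediate early genes, which cells switch on within minutes of a signal, leaned the other way, with 15 and 17 of 19 negative (medians -0.18 and -0.23). Without normoxia-NaCl 1 these medians were -0.05 and -0.12 (rounded), and on leaving out single libraries up to 9 and 7 of 19 were positive. The one with the lowest p was Dusp2, a phosphatase that restrains MAP kinases, with 2.92, 3.50 and 3.99 CPM in normoxia-NaCl, 3.39, 2.11 and 3.71 in normoxia-lactate, 3.34, 1.83 and 2.22 in hypoxia-NaCl and 0.447, 0.75 and 0 in hypoxia-lactate. Its interaction was -2.38 ± 0.99 (SE; 95% interval -4.53 to -0.23) and -1.87 ± 0.55 (SE; 95% interval -3.06 to -0.68), at CPM values near the filter. Gclc, the catalytic subunit of glutathione synthesis on the NRF2 list, measured 55.02, 68.5 and 53.99 CPM in normoxia-NaCl, 48.8, 55.4 and 42.7 in normoxia-lactate, 60.4, 62.2 and 49.9 in hypoxia-NaCl and 68.1, 84.98 and 68.7 in hypoxia-lactate and gave 0.64 ± 0.27 and 0.69 ± 0.23, at an unadjusted edgeR p of 0.0329 and 0.011. Pcna, Dusp2 and Gclc were named after their values were seen.

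The MHC class II genes, which present antigen to T helper cells, differed widely between libraries of a group. Their median interaction was 0.12 with all libraries, -0.06 with all libraries under upper-quartile scaling, and -0.28 without hypoxia-lactate 3. Without hypoxia-lactate 2 it was 0.45 with the other 11 libraries and 0.12 (rounded) with hypoxia-lactate 3 left out as well, and without hypoxia-lactate 1 and 3 it was -1.15. H2-Aa, an MHC class II chain chosen here to show the spread, measured 485, 103 and 438 CPM in normoxia-NaCl, 347, 83.5 and 328 in normoxia-lactate, 714, 132 and 619 in hypoxia-NaCl and 421, 68.5 and 648 in hypoxia-lactate. In every group library 2 was the lowest. The interaction was 0.07 ± 1.15 (SE; 95% interval -2.41 to 2.55) and -0.57 ± 1.13 (SE; 95% interval -3.01 to 1.86). In a fit blocked on library number, chosen for this gene and list after seeing the data, it was -0.11 ± 0.33 (SE; 95% interval -0.85 to 0.63) and -0.46 ± 0.21 (SE; 95% interval -0.92 to -0.007), at adjusted edgeR p-values of 0.928 and 1. The list's median in that fit was -0.06 with all libraries and -0.31 (rounded) without hypoxia-lactate 3, with 8 and 10 of 12 genes negative. The labels do not say that a number marks a shared mouse, culture or day.

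**Figure D4:**
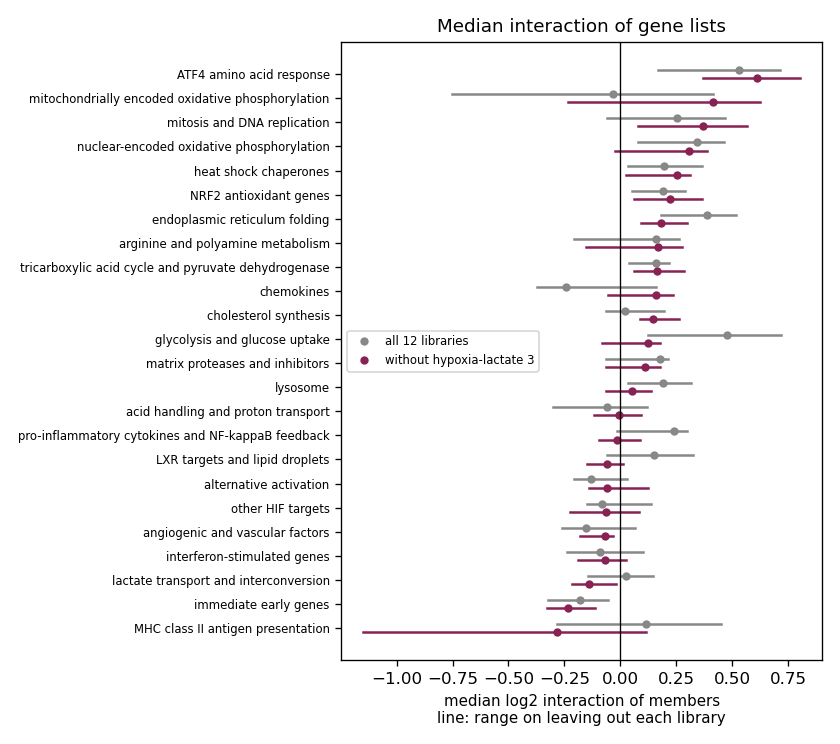
Median log2 interaction of the tested members of each of 24 gene lists (x axis) with all 12 libraries (grey) and without hypoxia-lactate 3 (purple); lines span the medians obtained on leaving out each library in turn. The ATF4 list has the highest median, 0.53 and 0.61, and its lines stay above 0. In both fits the lines of endoplasmic reticulum folding, heat shock chaperones, NRF2 antioxidant genes and the tricarboxylic acid cycle also stay above 0.

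The genes with the lowest p-values under the naming rule did not pass either. With all 12 libraries the 4 positive ones were Col27a1, Lrp2bp, Pam16 and Atf5, and the first 3 rested on hypoxia-lactate 3. Col27a1, a fibrillar collagen gene, measured 93.8 CPM there and 0.129 to 0.685 CPM in the other 11 libraries. Lrp2bp measured 82.5 CPM there and at most 0.654 elsewhere, and Pam16, a subunit of the mitochondrial import motor, 93.3 CPM and at most 7.40. Their interactions moved from 7.30, 8.54 and 3.98 to 1.01, 3.01 and 1.22 without it.

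Of the 4 negative ones with all libraries, 3 were Cox6c2, Rps3a3 and Rpl6l. They are processed pseudogenes in GENCODE and share sequence with Cox6c and with ribosomal protein genes, so their counts are uncertain.

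Without hypoxia-lactate 3 the 4 positive ones were Layn, Cdc123, Creld2 and Akr1b3. Layn, a hyaluronan receptor of the cell surface, measured 29.02, 23.6 and 26.5 CPM in normoxia-NaCl, 30.9, 39.4 and 35.8 in normoxia-lactate, 34.8, 33.97 and 24.6 in hypoxia-NaCl and 70.1, 93.5 and 21.7 in hypoxia-lactate. Hypoxia-lactate 1 and 2 were the 2 highest libraries of the 12 and hypoxia-lactate 3 the lowest. Its interaction was 0.97 ± 0.25 (SE; 95% interval 0.42 to 1.51) without hypoxia-lactate 3, at an unadjusted edgeR p of 0.00208 and an adjusted p of 0.998, and 0.57 ± 0.55 (SE; 95% interval -0.62 to 1.75) with it. Hypoxia raised Layn by 1.21 log2 in lactate (edgeR BH-adjusted p 0.00891) and the value in NaCl was 0.24 (adjusted p 0.474). Layn was chosen by its interaction p-value in these same libraries, so a larger change in lactate than in NaCl follows from the choice. The p-values of these changes add no further support for a difference between the media.

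Creld2, an endoplasmic reticulum stress protein, measured 29.9, 30.1 and 23.2 CPM in normoxia-NaCl, 23.8, 24.5 and 19.98 in normoxia-lactate, 20.9, 25.2 and 21.4 in hypoxia-NaCl and 31.4, 31.9 and 72.7 in hypoxia-lactate. All hypoxia-lactate libraries lay above all 9 others, and the interaction was 1.30 ± 0.43 (SE; 95% interval 0.36 to 2.23) and 0.78 ± 0.23 (SE; 95% interval 0.29 to 1.27). Cdc123, an assembly factor of the translation initiation factor eIF2, gave 0.81 ± 0.22 without hypoxia-lactate 3 and 0.36 ± 0.62 with it, and Akr1b3, aldose reductase, gave 1.25 ± 0.38 and 0.73 ± 0.87. For both, hypoxia-lactate 3 was the lowest library, at 6.88 and 10.9 CPM.

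The 4 negative ones without hypoxia-lactate 3 were Cox6c2, Prpsap2, Sap18b and Rps3a3. Prpsap2, a regulatory partner of the enzyme that makes phosphoribosyl pyrophosphate, measured 18.5, 24.96 and 17.6 CPM in normoxia-NaCl, 13.6, 24.4 and 16.5 in normoxia-lactate, 17.9, 18.4 and 20.4 in hypoxia-NaCl and 6.98, 8.85 and 10.4 in hypoxia-lactate. Hypoxia-lactate lay below the 9 other libraries, and the interaction was -0.95 ± 0.40 (SE; 95% interval -1.81 to -0.09) and -1.09 ± 0.33 (SE; 95% interval -1.81 to -0.37). Sap18b, a near copy of the histone deacetylase partner Sap18, gave -1.04 ± 0.40 and -0.75 ± 0.24 and is uncertain as a copied gene.

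**Figure D5:**
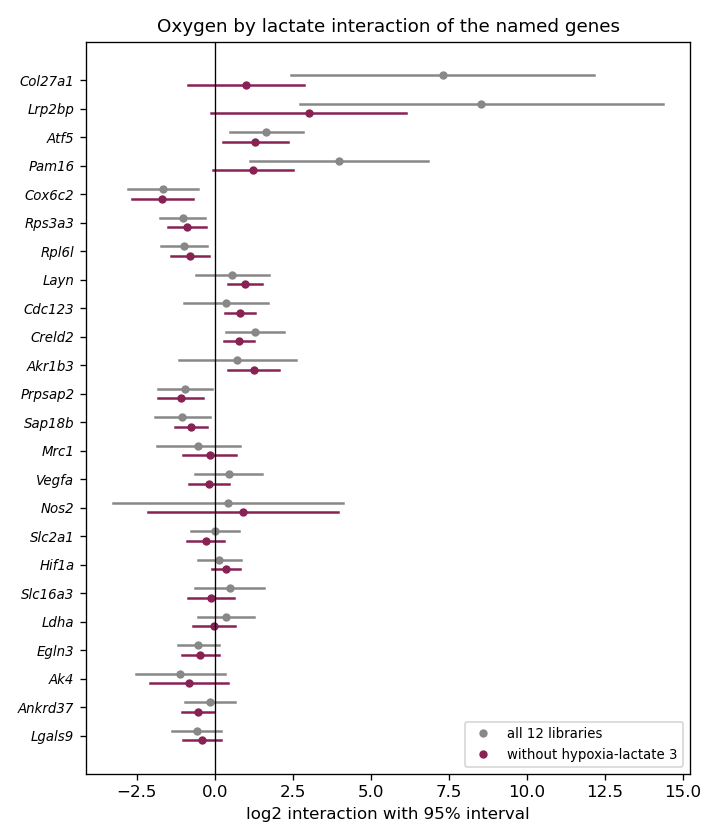
Log2 interaction (x axis) with its 95% interval for the named genes described here that were tested in both fits, with all 12 libraries (grey) and without hypoxia-lactate 3 (purple). No gene passed the adjusted test. Intervals of the HIF genes, Mrc1 and Lgals9 cross 0 except that of Ankrd37 without hypoxia-lactate 3, which ends at -0.03 (rounded).

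Negative values at low p were rich in pseudogenes. Processed and other pseudogenes made up 11.1% of the genes tested with all libraries, 49.6% of the 252 negative genes at an unadjusted edgeR p under 0.05 and 4.9% of the 245 positive ones. Without hypoxia-lactate 3 the shares were 11.5%, 46.3% of 419 and 10% of 190. The share of gene counts on pseudogenes was 2.24% ± 0.312 in normoxia-NaCl, 2.59% ± 0.271 in normoxia-lactate, 2.57% ± 0.247 in hypoxia-NaCl and 1.96% ± 0.561 in hypoxia-lactate (SD, n = 3 each). Its mean was higher under either single treatment than under neither, by differences of about the size of the SDs. Hypoxia-lactate 3 held the lowest share, 1.34%, and hypoxia-lactate 1 and 2 averaged 2.27%, close to normoxia-NaCl.

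The share of reads that did not align uniquely ran the opposite way, at 13.9% ± 4.14, 10.4% ± 2.31, 10.4% ± 1.81 and 12.8% ± 1.84 in the same order (SD, n = 3 each), and 11.8% as the mean of hypoxia-lactate 1 and 2. Across the 12 libraries the 2 shares correlated at Pearson r = -0.774 (permutation p = 0.00487, 100000 resamples, two-sided) and Spearman rho = -0.958 (permutation p = 1e-05, the smallest these resamples can give). Without the 2 libraries farthest from the median non-unique share, normoxia-NaCl 1 and normoxia-lactate 1, r was -0.906, with hypoxia-lactate 3 kept. The permutations ran over all 12 libraries regardless of group, so the p-values do not separate this relation from treatment. It was the only relation across libraries computed, and within a group 3 libraries are too few for one. The part of alignment in the negative values was not tested.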

How the data were processed

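RNA of 12 libraries of mouse macrophages was measured by sequencing. Per the labels' protocols, polyadenylated RNA was bound to beads and sequenced on an Ion Proton. The values the authors deposited are raw counts per Ensembl gene. BWA, HTSeq and mm9 appear, with no version, in the submitters' processing notes. Neither the annotation release nor the strand setting was found there, which leaves overlapping genes and near-identical copies uncertain. Of 37620 gene identifiers, 32897 matched a symbol in GENCODE (GRCm38), and 14122 of the 14616 tested genes had one. The 5 counters that name no gene were left out, and 8.34% to 18.4% of reads were in the counter for non-unique alignment. No 2 libraries held identical values.

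The interaction was tested on the deposited counts with edgeR 4.0.16 in R 4.3.3 (filterByExpr by group, TMM factors, quasi-likelihood F test, threshold 0.05 on BH-adjusted p over all tested genes), with 1 mean per group over all 12 libraries and again over 11. Standard errors are the absolute log2 change over the square root of F. CPM values are TMM-scaled. The test was tried on simulated data with the same dispersion for all genes and no outlying library. Those data differ from these libraries, and no result here rests on them. Alternatives were DESeq2 1.42.0, voom of limma 3.58.1 with and without quality weights, RLE and upper-quartile scaling, filtering at a mean CPM of 5 or not at all, robust edgeR, the library number as a block, and leaving out libraries. The averaged oxygen effect, the scaling of list medians and the block for the MHC class II genes were added after seeing the data. Lists were described by counts and medians with no set test. Genes were named by a rule: at least 5 CPM on average, no clone, predicted or -ps name, the 4 lowest p-values in each direction where fewer than 4 pass, and 12 genes always. The result of 1 gene named by that rule is not reported here. The members and lists were chosen with earlier results of these data known. Of the names on the lists, 4 (Hmgcs1, Emr1, Hbb-b1 and Hbb-b2) had no identifier.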

Additional observations from a re-analysis of the deposited data

How the results depend on the processing

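In edgeR, RLE or upper-quartile scaling, a filter at a mean of 5 CPM, robust fitting and limma-voom each left 0 genes called for the interaction, with all 12 libraries and without hypoxia-lactate 3. With all libraries DESeq2 called 1 higher, and quality weights called 1 higher and 1 lower. Without hypoxia-lactate 3, no filter, DESeq2 and quality weights each called 2 higher and 1 lower, and leaving out 1 more library gave 0 to 1 higher and 0 lower. The averaged oxygen effect with all libraries had 515 higher and 344 lower genes in DESeq2, 1199 and 1011 with quality weights, 722 and 640 without hypoxia-lactate 3 and normoxia-NaCl 1, and 73 to 722 and 7 to 640 on leaving out libraries. Without hypoxia-lactate 3 it had 960 and 1071 in DESeq2, 1129 and 962 with quality weights, and 272 to 722 and 129 to 764 on leaving out 1 more. The cause of these shifts was not tested.

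With the library number as a block, 0 genes were called for the interaction in both fits, and the averaged oxygen effect had 181 higher and 51 lower genes with all libraries and 1047 and 1164 without hypoxia-lactate 3. Of 18 correlations between same-numbered libraries' deviations, from -0.09 to 0.52, 10 were over 0.1. These values do not settle whether the numbers pair the libraries, and the labels do not say so. The main fits use no block, so their standard errors and intervals take no account of any such pairing. Slc2a1 turned to -0.008 under the block.

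Signs of small interactions turned. With all libraries Slc2a1 was -0.19 with upper-quartile scaling, -0.057 with the 5 CPM filter and -0.13 with quality weights, Nos2 -1.08 with limma-voom and -0.81 with quality weights, Mrc1 0.011 and Ldha -0.065 (quality weights). Without hypoxia-lactate 3, Nos2 was -0.44 and -0.86, and Mrc1 0.051 and Slc16a3 0.004 (quality weights). On leaving out libraries the ranges with all libraries were -0.081 to 1.25 for Akr1b3, -0.55 to 0.10 for Ankrd37, -0.26 to 0.55 for Ldha, -4.04 to 1.29 for Nos2, -0.17 to 0.80 for Slc16a3, -0.30 to 0.21 for Slc2a1 and -0.19 to 0.71 for Vegfa. Without hypoxia-lactate 3 they were -8.82 to 1.13 for Arg1, -0.26 to 0.14 for Ldha, -0.69 to 0.22 for Mrc1, -3.65 to 1.62 for Nos2, -0.31 to 0.21 for Slc16a3 and -0.37 to 0.02 for Vegfa. In normoxia the Arg1 counts were 0 to 2, at or under the limit that a count of 0 allows, so depth limits any fold there, and in hypoxia-lactate they ranged from 0 to 31.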

Other observations

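Itgae, the integrin alpha E chain, had counts of 0, 1 and 3 in normoxia-NaCl, 6, 3 and 6 in normoxia-lactate, 2, 1 and 1 in hypoxia-NaCl and 32, 9 and 0 in hypoxia-lactate, and it missed the low-count filter with all libraries. Mpo, a neutrophil precursor enzyme, measured 0.235 to 1.92 CPM in normoxia-NaCl, 0.146 to 1.03 in normoxia-lactate and 0.0965 to 2.14 in hypoxia-NaCl, and was at 0 in all 3 hypoxia-lactate libraries. Mpo does not stand for the neutrophil markers. Of those tested, 7 of 11 with all libraries and 8 of 12 without hypoxia-lactate 3 had positive interactions (medians 0.14 and 0.45). Scaled to the library size, the summed markers measured 234.8 to 294 CPM in hypoxia-lactate and 149.7 to 266 CPM in normoxia-NaCl. Itgae and Mpo were chosen after their values were seen, and neither was called.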
